A study of Rattus norvegicus with 16 samples.

Results

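Transcripts of the arcuate feeding peptides were followed in RNA sequencing of the hypothalamus of female Wistar rats at 21 days of age. Of the 32883 Ensembl rat IDs in the count files, 3 were chosen by ID: ENSRNOG00000012686 for Pomc, ENSRNOG00000009768 for Npy and ENSRNOG00000017712 for Cartpt. No table used here pairs Ensembl IDs with symbols, so these 3 names come from the selection and were not checked against an annotation. The rats descended from dams given either vehicle or a mixture of endocrine disrupting chemicals (EDC) in their food, starting 2 weeks ahead of gestation and lasting until lactation ended. F1 rats were exposed in utero and F3 rats were ancestrally exposed, both through the maternal lineage. The tissue, labelled MBH-PoA, was frozen on dry ice. The groups F1 control (vehicle), F1 EDC, F3 control (vehicle) and F3 EDC held 4 libraries each, 16 in all. The sample titles of all EDC libraries read Control, and their source and treatment fields, which name the EDC mixture, set the groups. Nothing in the labels says whether rats of a group were littermates, so p-values measure the spread between these libraries.

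Pomc encodes pro-opiomelanocortin, a precursor cut into melanocyte-stimulating hormones, corticotropin and beta-endorphin. Neurons of the arcuate nucleus in the mediobasal hypothalamus release its melanocortins, which reduce food intake, and the pituitary also makes large amounts of the precursor. Cartpt encodes the precursor of CART peptides, which reduce food intake and are made in many Pomc neurons as well as in other hypothalamic cells. Npy encodes neuropeptide Y, which raises food intake and comes from a separate set of arcuate neurons. Both kinds of neuron respond to leptin and insulin and contact the neurons that control puberty.

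The label of the set held only in part. The ID given for Npy had 0 reads in 15 libraries and 1 read in F3 EDC replicate 1. That read is 0.0318 counts per 1000000 counts of the tested genes after TMM scaling (CPM; exact Poisson 95% interval 0.000804 to 0.177, counting error only). Of all IDs in the files, 10894 (33.1%) had a total of 1 read or 0 over the 16 libraries. In the libraries with 0 reads, the upper end of the same interval ran from 0.0926 CPM (F1 EDC replicate 4) to 0.658 CPM (F1 control replicate 4). This ID therefore gave no measurement of neuropeptide Y transcripts, and no level of Npy is reported. It did not pass the filter on low counts. The other 2 of the 3 IDs were detected in all 16 libraries, with 19 to 348 reads for Pomc and 74 to 1003 reads for Cartpt, and both passed. Reads on the opposite strand of the Pomc ID numbered at most 6 in a library, and those of the Cartpt ID at most 1. Without symbols, the planned lists of precursor-processing enzymes, peptide receptors, hormone sensors, arcuate transcription factors and markers of pituitary and other neighbouring cells could not be matched and were not analysed here. The labelled tissue could thus be checked only through the 2 detected peptides.

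The promoters of the 2 detected genes are shown because their levels tended to move together between libraries, as described below. They are the 250 bases before the start site in RefSeq (build GRCr8, whereas the submitters' processing notes name rn6 for the counts), written from 5′ to 3′ on the strand of the gene. All 3 symbols had an entry. Capitals mark matches to 5 motifs searched on both strands: the TATA core (TATAA), the cyclic AMP response element (TGACGTCA), the single nuclear receptor site (AGGTCA), the estrogen response element (GGTCANNNTGACC, which is built from 2 copies of 5 of its letters, facing each other) and the core bound by the aryl hydrocarbon receptor (GCGTG).
Pomc, chr6:32659103-32659352, plus strand: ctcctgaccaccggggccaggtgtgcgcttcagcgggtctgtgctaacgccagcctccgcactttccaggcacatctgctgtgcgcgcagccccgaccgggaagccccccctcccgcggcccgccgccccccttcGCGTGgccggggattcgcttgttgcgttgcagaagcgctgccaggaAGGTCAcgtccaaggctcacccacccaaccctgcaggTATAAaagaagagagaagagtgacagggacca
Cartpt, chr2:32991236-32991485, minus strand: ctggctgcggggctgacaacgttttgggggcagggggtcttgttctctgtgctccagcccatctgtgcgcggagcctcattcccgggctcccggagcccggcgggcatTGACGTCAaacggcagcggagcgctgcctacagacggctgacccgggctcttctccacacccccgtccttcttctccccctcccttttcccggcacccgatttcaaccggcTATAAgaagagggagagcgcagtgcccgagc
Both windows held TATAA, at 32 to 28 bases before the start in Pomc and 31 to 27 in Cartpt. The Pomc window also held AGGTCA at 69 to 64 bases and GCGTG at 115 to 111 bases before the start. The Cartpt window held the cyclic AMP response element at 142 to 135 bases before the start, and neither held the estrogen response element. Among 33469 promoter windows of the same length, 24.0% held TATAA, 1.59% TGACGTCA, 14.1% AGGTCA, 25.9% GCGTG and 0.0239% GGTCANNNTGACC. These matches describe the letters in the windows only.

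The 4 F1 EDC libraries stood apart from the other 12 on the first principal component of log2 CPM (46.2% of the variance), scoring 84.7 to 88.0 where the others scored -37.9 to -11.5. Every comparison with F1 EDC rests on these libraries, and what sets them apart was not tested. Counts assigned to genes ran from 5655354 to 35981898 per library. The share of reads mapping to several places ran from 41.8% to 51.6% in F1 EDC and from 19.9% to 43.2% in F1 control, and from 15.7% to 44.4% in F3. The lane number in the deposited names differs between F1 and F3, so generation and lane cannot be told apart where levels of the 2 generations are compared. The protocol states 4 samples per lane, whereas 1 number covers the 8 libraries of a generation, so lanes within a generation are not known and lane and treatment may also coincide there.

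**Figure D1:**
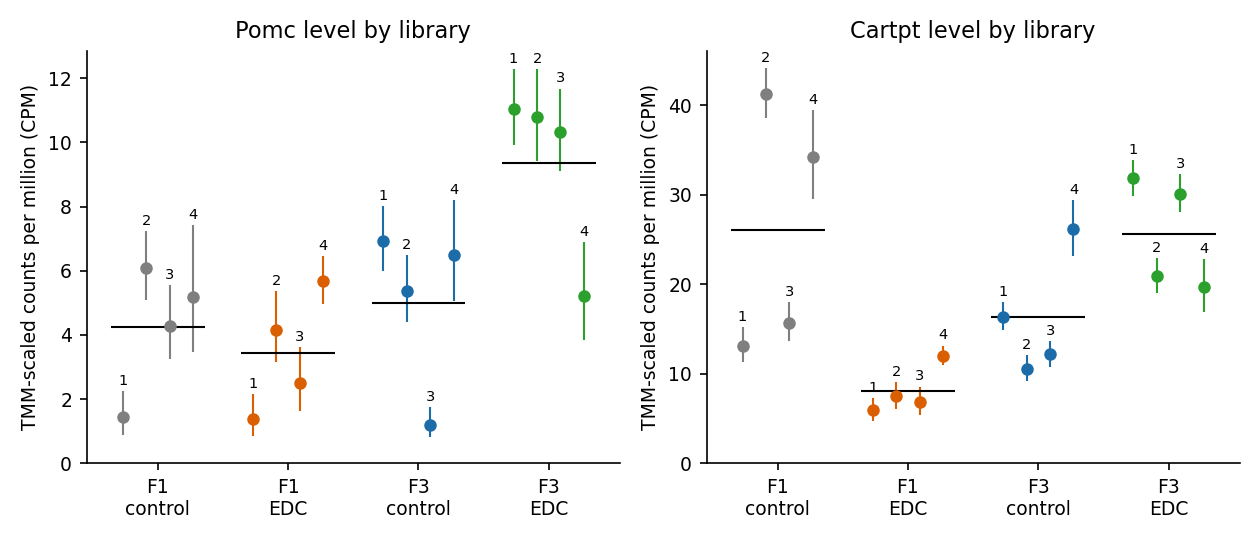
Levels of Pomc (left) and Cartpt (right) in each library, in TMM-scaled CPM, by group. Points are libraries numbered by replicate, vertical bars are exact Poisson 95% intervals of the count, and black lines are group means. All 4 Cartpt values of F1 EDC, 5.91 to 12.02 CPM, lie below the 4 of F1 control, whereas the Pomc values of the F1 groups overlap.

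Cartpt was lower in the hypothalamus of exposed F1 rats. Replicates 1 to 4 of F1 control held 13.1, 41.3, 15.7 and 34.3 CPM of Cartpt, and those of F1 EDC held 5.91, 7.46, 6.83 and 12.02 CPM. The groups did not overlap, although F1 EDC replicate 4 came close to F1 control replicate 1. The controls themselves fell into 2 lower and 2 higher libraries, 3.14-fold apart at the extremes. The mean was 26.1 ± 13.8 CPM in control and 8.06 ± 2.72 CPM in EDC (SD, n = 4 each). The fitted log2 fold change of Cartpt was -1.65 (SE 0.41, 95% interval -2.54 to -0.76), a 3.15-fold lower level in EDC (edgeR quasi-likelihood test, Benjamini-Hochberg adjusted p = 0.00409). In this comparison 52.4% of the 15366 genes tested passed the threshold of 0.05, 27.0% with a lower level. The groups did not overlap for 44.0% of genes, 22.0% with EDC lower, so a call was the common outcome among genes. The size was less common: 92.0% of the tested genes had a smaller absolute log2 fold change than Cartpt. Cartpt also varied more between libraries of a group than most genes, as given below. With the multimapping share as a covariate, Cartpt differed by -1.37 (edgeR adjusted p = 0.0179). In bulk tissue, fewer Cartpt cells and less Cartpt RNA per cell cannot be told apart.

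Pomc did not differ detectably between the F1 groups. Its levels in F1 control replicates 1 to 4 were 1.44, 6.10, 4.29 and 5.17 CPM, and in F1 EDC 1.39, 4.15, 2.49 and 5.67 CPM. Each group had 1 library near 1.4 CPM and the 2 ranges almost coincided. The mean was 4.25 ± 2.02 CPM in control and 3.43 ± 1.88 CPM in EDC (SD, n = 4 each). The fitted log2 fold change was -0.26, with an SE of 0.54 and a 95% interval from -1.42 to 0.90 (edgeR adjusted p = 0.722). The interval for Pomc was wide, and the fitted value of Cartpt lay just below its lower end. Without F1 control replicate 2 the fitted value was 0.032 (edgeR adjusted p = 0.972), and without F1 EDC replicate 1 it was -0.0063 (edgeR adjusted p = 0.993), so the direction of the Pomc value rested on single libraries.

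In F3, neither peptide transcript passed the threshold, although both means were higher in the EDC lineage. Pomc was at 6.94, 5.37, 1.204 and 6.49 CPM in replicates 1 to 4 of F3 control and at 11.05, 10.8, 10.3 and 5.20 CPM in F3 EDC. Replicates 1 to 3 of F3 EDC lay above every F3 control, and replicate 4 lay among the controls. The means were 5.003 ± 2.62 and 9.34 ± 2.78 CPM (SD, n = 4 each), and the log2 fold change of Pomc was 0.93 (SE 0.51, 95% interval -0.17 to 2.02; edgeR adjusted p = 0.393). Replicate 4 of F3 EDC was also the library with the highest multimapping share in F3, 44.4%, and without it the fitted value was 1.11 (edgeR adjusted p = 0.347). Among the F3 controls, replicate 1, with a share of 43.3%, held the most Pomc, and replicate 3, with 16.5%, the least. Without F3 control replicate 3 the fitted value was 0.59 (edgeR adjusted p = 0.557). Over all single libraries left out, the value for Pomc ran from 0.59 to 1.15.

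Cartpt in F3 control replicates 1 to 4 was at 16.4, 10.5, 12.2 and 26.2 CPM, and in F3 EDC at 31.8, 20.9, 30.1 and 19.7 CPM. Only F3 control replicate 4 reached into the F3 EDC range. The means were 16.3 ± 7.01 and 25.7 ± 6.22 CPM (SD, n = 4 each), with a log2 fold change of 0.68 (SE 0.39, 95% interval -0.16 to 1.53; edgeR adjusted p = 0.418) and a range of 0.52 to 0.98 without single libraries. Of the 15366 genes, 2.94% passed the threshold in F3 and 12.2% had groups that did not overlap. Both fitted values lay at the far end of all genes in size: 96.9% of genes had a smaller absolute log2 fold change than Pomc and 94.0% a smaller one than Cartpt. Their libraries also varied more than those of most genes, as given below.

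**Figure D2:**
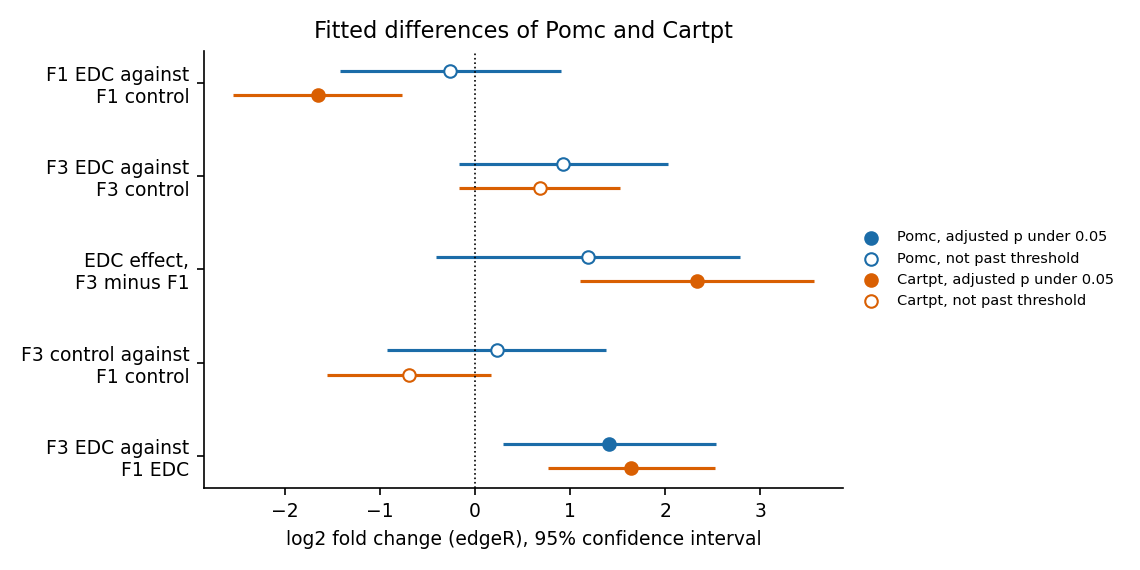
Fitted log2 fold changes of Pomc and Cartpt (edgeR) in 5 comparisons of the groups, with 95% confidence intervals. Filled points passed an adjusted p of 0.05. For Cartpt the fitted value is -1.65 in F1 and 0.68 in F3, and the difference of the 2 passed the threshold.

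The Cartpt difference between EDC and control was not the same in F1 and F3. Subtracting the F1 from the F3 log2 fold change gave 2.34 for Cartpt (SE 0.57, 95% interval 1.11 to 3.56; edgeR adjusted p = 0.00461). For Pomc the same difference was 1.19 (SE 0.75, 95% interval -0.41 to 2.78; edgeR adjusted p = 0.222). This contrast called 43.6% of the tested genes, 21.8% with the higher value in F3, so Cartpt shared its outcome with a large part of the transcriptome.

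Ordered by mean level, Cartpt was highest in F1 control (26.1 CPM), followed by F3 EDC (25.7), F3 control (16.3) and F1 EDC (8.06). No pair of neighbours in this order differed past the threshold. The log2 fold change of Cartpt between F3 EDC and F1 control was -0.01 (SE 0.39; edgeR adjusted p = 0.988), a contrast that called 16.2% of genes. Between F3 control and F1 EDC it was 0.96 (SE 0.41; edgeR adjusted p = 0.0623), where 54.9% of genes were called. The controls of the 2 generations did not differ past the threshold, at -0.69 for F3 against F1 (SE 0.40; edgeR adjusted p = 0.226), where 27.5% of genes did. This Cartpt value was -0.32 without F1 control replicate 2 and -0.99 without F3 control replicate 4, the ends of its range without single libraries. Cartpt was 3.12-fold higher in F3 EDC than in F1 EDC (1.64 on the log2 scale, SE 0.41; edgeR adjusted p = 0.00381), with groups that did not overlap. Of all genes, 53.5% passed the threshold in that comparison, 27.0% with F3 higher, and 51.5% had groups that did not overlap, 25.8% with F3 higher. With the multimapping share as a covariate, the Cartpt value there was 1.15 (edgeR adjusted p = 0.0789), which ended the call.

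Pomc was highest in F3 EDC (9.34 CPM), followed by F3 control (5.003), F1 control (4.25) and F1 EDC (3.43). Only the 2 ends of this order differed past the threshold: F3 EDC was 2.66-fold above F1 EDC (1.41 on the log2 scale, SE 0.52; edgeR adjusted p = 0.0331), with overlapping groups. That comparison called 53.5% of all tested genes, 27.0% with F3 EDC higher, so a call was the common outcome there too. The Pomc call was lost with the multimapping share as a covariate (1.21, edgeR adjusted p = 0.213) and without any 1 of 6 libraries, as listed in the closing section. No neighbours in the order differed past the threshold, and the log2 fold change of Pomc for F3 control against F1 control was 0.23 (SE 0.54; edgeR adjusted p = 0.804). Against F1 control, F3 EDC differed by 1.16 (SE 0.53; edgeR adjusted p = 0.164), and F3 control differed from F1 EDC by 0.49 (SE 0.53; edgeR adjusted p = 0.465). These comparisons share groups with those above and are not independent of them.

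The number of Cartpt reads per Pomc read within a library does not depend on the scaling between libraries. It was 9.16, 6.78, 3.67 and 6.62 in F1 control replicates 1 to 4 and 4.25, 1.80, 2.74 and 2.12 in F1 EDC. Only F1 EDC replicate 1 and F1 control replicate 3 crossed between the groups. The mean log2 ratio was 2.64 ± 0.55 in control and 1.37 ± 0.54 in EDC (SD, n = 4 each), a difference of -1.27 (exact permutation test, two-sided p = 0.0571, adjusted 0.114 for 2 generations). The smallest p of 4 against 4 libraries is 0.0286, which beside the F3 value below would have an adjusted value of 0.0571, so the adjusted test could not pass 0.05 in F1. Whether Cartpt differed more than Pomc between the F1 groups was thus not settled, although the former passed the threshold in edgeR and the latter did not.

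In F3 the ratio of Cartpt to Pomc reads was 2.36, 1.96, 10.1 and 4.03 in control and 2.88, 1.94, 2.92 and 3.79 in EDC. Control replicate 3, in which Pomc was lowest, stood alone at the top. The mean log2 ratio was 1.89 ± 1.06 in control and 1.49 ± 0.40 in EDC (SD, n = 4 each), a difference of -0.40 (exact permutation test, two-sided p = 0.6, adjusted 0.6). Without control replicate 3 the difference was 0.080, in the other direction.

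**Figure D3:**
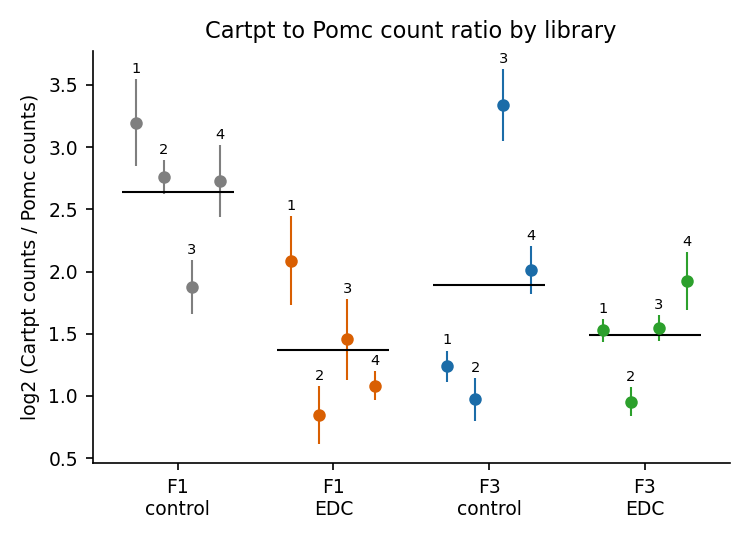
Log2 ratio of Cartpt reads to Pomc reads in each library, by group. Points are libraries numbered by replicate, vertical bars are 1 SD from counting error alone, and black lines are group means. The F1 groups overlap only through F1 EDC replicate 1 and F1 control replicate 3, and F3 control replicate 3 lies far above the other F3 libraries.

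Both transcripts varied widely between libraries of a group. The standard deviation of log2 CPM within groups was 0.88 for Pomc and 0.57 for Cartpt, against a median of 0.21 over all tested genes, and was smaller than that of Pomc in 93.4% of genes and than that of Cartpt in 84.1%. Counting error alone would give 0.20 for Pomc and 0.10 for Cartpt at these read numbers. Pomc spanned 9.17-fold over the 16 libraries, from 1.204 to 11.05 CPM, and Cartpt 6.99-fold, from 5.91 to 41.3 CPM.

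Within groups, libraries with more Pomc tended to have more Cartpt. Over the 16 libraries, deviations of log2 CPM from the group mean lay on the same side for both genes in 12, with 7 above and 5 below, and on opposite sides in 4. Their Pearson r was 0.669 (permutation p = 0.0144, adjusted 0.0432 over 3 relations) and Spearman's rho 0.750 (permutation p = 0.00620, adjusted 0.0186), with libraries permuted within groups. Without the 2 libraries farthest from the median of Pomc, F1 control replicate 1 and F3 control replicate 3, r was 0.614. Within the 8 F1 libraries r was 0.808 (exact permutation p = 0.00868) and rho 0.905 (exact permutation p = 0.00347). Within the 8 F3 libraries r was 0.5002 (exact permutation p = 0.385) and rho 0.381 (exact permutation p = 0.441), so the relation did not hold by test in F3 alone. The other 2 relations set the multimapping share against each gene in the same way. Here the 2 libraries left out were those farthest from the median in multimapping share, not in Pomc. The r was -0.0272 for Pomc (permutation p = 0.915, adjusted 0.915) and 0.300 without these 2 libraries. For Cartpt it was -0.377 (permutation p = 0.210, adjusted 0.315) and -0.168 without them. The rho was -0.0706 for Pomc (permutation p = 0.805) and -0.474 for Cartpt (permutation p = 0.111).

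**Figure D4:**
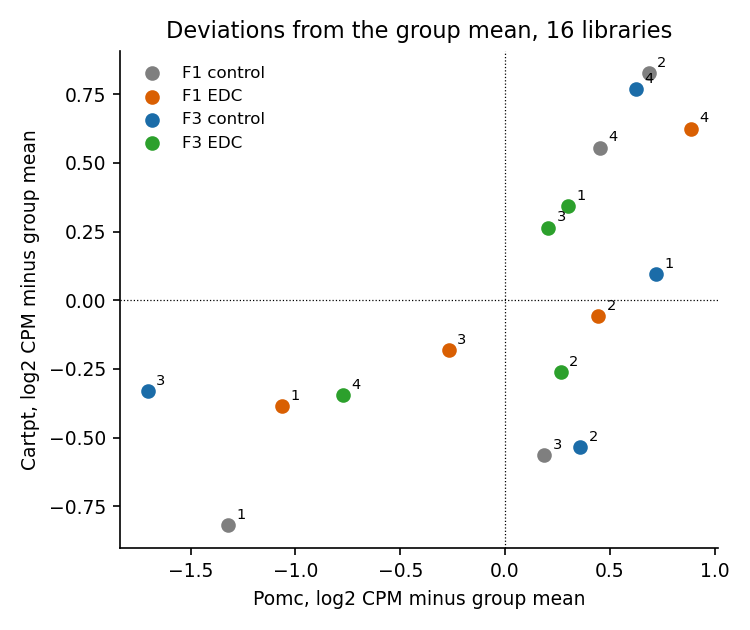
Deviation of log2 CPM from the group mean for Pomc (horizontal) and Cartpt (vertical) in the 16 libraries, coloured by group and numbered by replicate. Points lie mostly in the lower left and upper right, with 12 of 16 on the same side for both genes (Pearson r 0.669).

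The gene whose pattern over the 16 libraries lay nearest to that of Cartpt was ENSRNOG00000029778, with a root mean square difference of 0.36 in mean-centred log2 CPM, against a median of 0.91 over all tested genes. Its controls held 63.9 ± 14.98 CPM in F1 and 46.2 ± 10.5 CPM in F3, and its EDC groups 28.8 ± 5.87 CPM in F1 and 61.0 ± 6.53 CPM in F3 (SD, n = 4 each). It was selected for its likeness over these same libraries, so its group levels are a description only. The nearest to Pomc was ENSRNOG00000010806, at 0.50 against a median of 1.03, with 4.04 ± 3.14 and 3.95 ± 3.06 CPM in the controls of F1 and F3, and 2.35 ± 1.14 and 4.96 ± 1.47 CPM in the EDC groups (SD, n = 4 each). Pomc and Cartpt were 0.75 apart. A gene with no change over the libraries would lie 0.96 from Pomc and 0.83 from Cartpt. Cartpt was the 49th nearest gene to Pomc, and Pomc the 2649th nearest to Cartpt.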

How the data were processed

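The authors deposited whole-number read counts, by gene and library, unstranded and for each strand, in the layout of STAR's gene count table. Trimmomatic 0.33, TopHat2 2.1 and the build rn6 appear in the submitters' processing notes, whereas no source used here gives the STAR version or the Ensembl release. Per the labels' protocols, reads were single with 100 cycles. Column 4 was used, which held at least 52.5 times the gene counts of the other strand. Summary lines were left out of library sizes, and multimapping reads are not in the counts.

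TMM factors scaled the counts for a test in edgeR 4.0.16 (R 4.3.3; quasi-likelihood, robust, 4 group means, 16 libraries) on the 15366 genes kept by filterByExpr (count minimum 10). P-values were adjusted by Benjamini-Hochberg over those genes, two-sided, with a threshold of 0.05. CPM were computed here, and log2 CPM used a prior count of 2. Ratios and correlations were tested by permutation (SciPy 1.17.1; 100000 resamples for 16 libraries). Ratios with Npy could not be formed. The procedure was also run on simulated counts in which only a small part of the genes was changed. That run does not cover a comparison such as F1, where most tested genes were called. The RefSeq table (GRCr8) paired 0 Ensembl IDs with symbols, so the planned lists were left out. The IDs named for likeness are the nearest of each peptide. Alternatives were other scaling factors, DESeq2 1.42.0, limma 3.58.1 voom, other filters, unstranded counts, a replicate block, the multimapping share and leaving out libraries. Members and lists were chosen with earlier results of these data known.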

Additional observations from a re-analysis of the deposited data

Results flagged for a closer look

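Pomc in F3 EDC replicate 4, at 5.20 CPM, lay far below the other 3 F3 EDC libraries, which held 10.3 to 11.05 CPM, and the gap made up 0.878 of the range of that group, above Dixon's 95% critical value for 4 samples. The 2 genes and their ratio gave 12 such groups, and chance flags about 1 in 20. The Cartpt difference between EDC and control changed by 2.34 on the log2 scale from F1 to F3 (F3 minus F1; edgeR adjusted p = 0.00461), with all 4 F1 EDC libraries below the 4 F1 controls. Both outcomes were common: this contrast called 43.6% of the tested genes. The F1 groups did not overlap for 44.0% of genes, 22.0% with EDC lower. Over the alternatives with other settings the adjusted p of this Cartpt difference ran from 0.000269 to 0.0305.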

How the results depend on the processing

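The lower Cartpt in F1 EDC kept its direction and its call in all 27 alternatives, from -1.95 to -1.29 without single libraries and from -1.67 to -1.37 otherwise, as did its difference between generations in all 26 (2.00 to 2.66 and 1.86 to 2.38). Some of the 27 left out an F3 library, which is in neither F1 group. The number of genes called in F1 was stable too, at 7556 to 8141 without single libraries and 7259 to 8284 otherwise. Neither gene passed the threshold in F3 under any of 28 alternatives each, some of which left out an F1 library, which is in neither F3 group. Voom with sample weights came closest, at 1.39 for Pomc (adjusted p = 0.0679) and 0.93 for Cartpt (adjusted p = 0.0705). The log2 fold change of Pomc turned to 0.032 in F1 without F1 control replicate 2 (range without single libraries -0.66 to 0.032) and to -0.067 for F3 control against F1 control without F1 control replicate 1 (-0.067 to 0.56). The log2 ratio of Cartpt to Pomc in F3 turned to 0.080 without F3 control replicate 3 (-0.71 to 0.080). For F3 EDC against F1 EDC, the call of Pomc was lost with plain totals (1.30), no filter (1.44) and the multimapping covariate (1.21), and without F1 EDC replicates 1, 2 or 3 or F3 EDC replicates 1, 2 or 3 (range without single libraries 1.204 to 1.86). The call of Cartpt there was lost with the covariate (1.15). The F3 count of 452 genes was 166 with plain totals, 758 with DESeq2, 1522 with voom and 34 to 553 without single libraries. Without the 8 libraries over 40% multimapping, edgeR called 0 genes in F3 (2240 at an unadjusted p under 0.05; no other tool was run), and no F1 EDC library was left. The correlation of Pomc and Cartpt was 0.5002 in the F3 libraries alone, where it did not pass. The cause of these changes was not tested. Whether libraries with the same replicate number were paired is not known. Over all tested genes, same-numbered libraries deviated with r from -0.108 to 0.0884, and 6 of 8 controls correlated best with an EDC library of another number. With the replicate block, F1 called 7732 genes and F3 304. Cartpt then differed by -1.61 in F1 (SE 0.30, against 0.41 without the block; edgeR adjusted p = 0.00112). A block within generations cannot be fitted to comparisons between generations.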
